A study of Homo sapiens with 4 samples.

Results

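The phosphodiesterases PDE4A, PDE4B, PDE4D and PDE7A, the transcription factors CREB1, CREM and CREB5, the CREB coactivators CRTC2 and CRTC3 and the kinase SIK1 were taken by gene symbol from the deposited count table, which held all 10 among its 61267 genes. The question set for them was whether genes of the cAMP feedback loop followed NR4A1, NR4A2, NR4A3 and RGS2, which were higher after Spautin-1. The 10 genes were selected on sight of the differences between Spautin-1 and vehicle in these same libraries, so their values are a description and carry no test. Messenger RNA was sequenced from SU-DHL-2, an established human line of diffuse large B-cell lymphoma, a cancer of mature B cells, labelled as wild type. One group of 2 libraries received solvent (vehicle, for a time the labels do not give) and the other group of 2 libraries received Spautin-1, a small molecule known as an inhibitor of the deubiquitinases USP10 and USP13, at 10 μM for 36 h. The labels do not say that libraries of a group came from separate cultures, so their spread may be technical.

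Cyclic AMP is made by adenylyl cyclases after a hormone, prostaglandin or adenosine receptor activates the stimulatory G protein. It frees the catalytic subunits of protein kinase A, which phosphorylate CREB1 and its relatives at cAMP response elements (CREs) in DNA, and CRTC coactivators then enter the nucleus and join CREB. Phosphodiesterases break cAMP down, the short CREM product ICER represses CREs, and the salt-inducible kinases keep CRTC proteins in the cytoplasm. Several of these brakes are themselves driven by CREB, and PDE4B is the phosphodiesterase best known for limiting cAMP responses in lymphoid cells.

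Totals ran from 34115420 to 38362526 counts per library. All 10 B lineage markers had a mean of at least 1 CPM (CPM, library-scaled counts with TMM factors), and their sums were 1206 and 1070 CPM under vehicle, 1683 and 1640 CPM under Spautin-1. Of 12 markers of other cells, 3 (EPCAM, CD68 and HBB) reached that level, and the 12 together stood between 60.2 and 72.2 CPM with overlapping groups. Of 18368 genes tested, 22.0% were called, 11.5% higher and 10.5% lower (quasi-likelihood F test of edgeR, p under 0.05 after Benjamini-Hochberg adjustment).

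Of the 10 genes, 9 had enough reads to enter the fit, and 5 of these stood higher at that threshold: PDE4B, PDE7A, CREB1, CRTC2 and SIK1. None stood lower, and CREM at -0.01 was the only one with a log2 fold change below 0. The background is 22.0% of all genes called, and nothing is read from the count because the choice of genes used this contrast. Here and below, passing the threshold describes these genes and tests nothing about them. PDE4B entered the fit through the Spautin-1 libraries alone. In 6 of the 9 both Spautin-1 libraries lay above both vehicle libraries, an arrangement seen in 30.8% of all genes tested, and the opposite one, seen in 30.6%, occurred in none. The groups overlapped for PDE4A, CREM and CRTC3. All levels are shares of a library, so changes per cell, in the mix of cells or in other messages cannot be told apart.

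**Figure D1:**
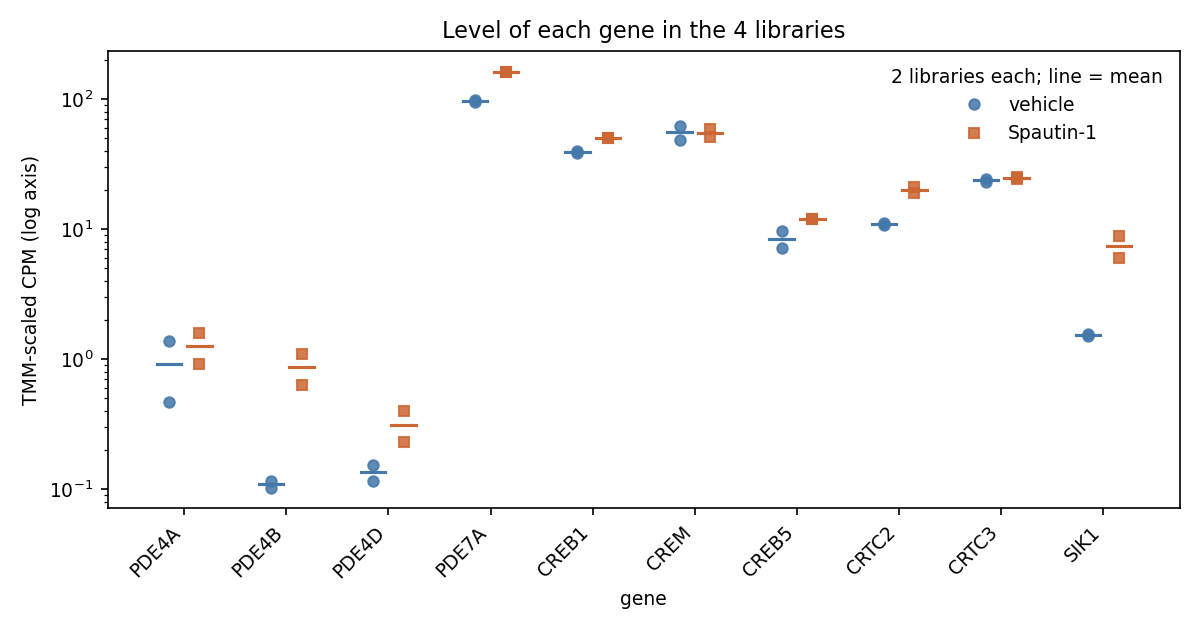
TMM-scaled CPM (log axis) of the 10 genes in each of the 4 libraries, with circles for vehicle, squares for Spautin-1 and a line at each group's mean. PDE7A, the highest, stood at 162 CPM in both Spautin-1 libraries against 98.3 and 93.9 CPM in vehicle, while CREM, CRTC3 and PDE4A overlapped between groups.

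The phosphodiesterases differed from each other by orders of magnitude in level. PDE7A (chromosome 8, 65714334 to 65842322, minus strand, GRCh38), a cAMP-specific enzyme known from T cells, was read 3414 and 3630 times in vehicle and 6081 and 5620 times in Spautin-1. That is 98.3 and 93.9 CPM against 162 and 162 CPM, a 1.69-fold higher level (log2 fold change 0.75 ± 0.10, ± SE). The groups did not overlap, with an SD of 3.07 CPM for vehicle and 0.0884 CPM for Spautin-1. With n = 2 each, these SDs are too uncertain to measure the distance between groups against. No library left out moved the log2 value outside 0.72 to 0.79. PDE7A shares exonic bases with MTFR1 and PDE7A-DT on the opposite strand and with an unnamed gene on its own strand, so some of its reads may be theirs.

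PDE4B (chromosome 1, 65792514 to 66374579, plus strand) was almost silent in vehicle, with 4 reads in each library, and had 24 and 38 reads in Spautin-1. Its level went from 0.115 and 0.104 CPM to 0.640 and 1.10 CPM, a 7.73-fold difference on very few reads (log2 fold change 2.95 ± 0.74). Both Spautin-1 libraries were above both vehicle libraries, but even the higher level remained among the lowest of the set. Leaving out a library gave log2 values from 2.52 to 3.28, and without Spautin-1 replicate 2 it no longer passed the threshold. PDE4A (chromosome 19, 10416773 to 10469630, plus strand), a widely expressed member of the same enzyme family, had 48 and 18 reads in vehicle and 60 and 32 in Spautin-1. At 1.38 and 0.466 CPM against 1.60 and 0.924 CPM the groups overlapped, and the 2 vehicle libraries differed from each other more than the group means did. Its log2 fold change of 0.46 ± 0.54 was 1.43 with vehicle replicate 1 left out and -0.13 with vehicle replicate 2 left out, so no direction can be given for it. PDE4D (chromosome 5, 58969038 to 60522120, minus strand), the third family member, had 4 and 6 reads in vehicle and 15 and 8 in Spautin-1. Both Spautin-1 libraries were higher, at 0.400 and 0.231 CPM against 0.115 and 0.155 CPM, but the counts were below the filter, and the gene was left out of the fit.

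Among the transcription factors, CREB1 (chromosome 2, 207529737 to 207605988, plus strand), the founding CRE-binding protein, was slightly higher in Spautin-1. The vehicle libraries stood at 38.1 and 39.8 CPM and the Spautin-1 libraries at 50.2 and 50.4 CPM, a 1.29-fold difference (log2 fold change 0.37 ± 0.12). The groups did not overlap, yet the gene sat near the threshold and passed in 9 of 14 settings (the test and 13 alternatives to its scaling, filter, tool or libraries), failing without Spautin-1 replicate 1 and without Spautin-1 replicate 2, where the log2 value was 0.36 and 0.38. CREB5 (chromosome 7, 28299321 to 28825894, plus strand), a CRE-binding protein related to ATF2, was in vehicle at 9.703 and 7.195 CPM, and under Spautin-1 at 12.02 and 12.01 CPM. Both Spautin-1 libraries were again higher, but the difference of 0.51 ± 0.19 on the log2 scale did not pass, and it ran from 0.31 without vehicle replicate 2 to 0.74 without vehicle replicate 1.

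CREM (chromosome 10, 35126791 to 35212958, plus strand), the gene of the inducible repressor ICER, was well expressed and overlapped between groups. It had 1674 and 2409 reads in vehicle and 1913 and 2030 in Spautin-1, or 48.2 and 62.3 CPM against 51.0 and 58.6 CPM. Both Spautin-1 libraries lay inside the range of the vehicle libraries, and the log2 fold change was -0.01 ± 0.14, from -0.19 without vehicle replicate 1 to 0.18 without vehicle replicate 2. GENCODE 29 gives CREM 41 distinct transcript starts, the most of the 10 genes, and PDE4B 18. The table holds 1 count per gene, so a rise in ICER with a fall in longer CREM transcripts, or a shift between long and short PDE4 forms, would not be visible. CREM also shares exonic bases with CUL2 on the opposite strand.

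The coactivators parted. CRTC2 (chromosome 1, 153947669 to 153958615, minus strand) was at 10.7 and 11.1 CPM in the vehicle libraries, against 18.9 and 20.9 CPM with Spautin-1, 1.82-fold higher (log2 fold change 0.87 ± 0.15), and passed in all 14 settings. CRTC3 (chromosome 15, 90529923 to 90645345, plus strand), its close relative, was at 24.3 and 23.0 CPM against 24.1 and 25.2 CPM, with overlapping groups and a log2 fold change of 0.06 ± 0.14. CRTC1, the remaining family member and not one of the 10 genes, fell 1.54-fold from 8.12 and 9.08 CPM to 5.97 and 5.22 CPM (edgeR adjusted p = 0.0412). That call was lost without vehicle replicate 2 (edgeR adjusted p = 0.0703) and with either of the treated libraries left out (0.0987 for replicate 1, 0.294 for replicate 2).

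SIK1 (chromosome 21, 43414483 to 43427131, minus strand), the salt-inducible kinase that restrains CRTC proteins and is itself a classical CREB target, had 54 and 58 reads in vehicle and 225 and 309 in Spautin-1. Its level was 1.555 and 1.501 CPM against 5.997 and 8.919 CPM, a 4.87-fold difference (log2 fold change 2.28 ± 0.27) that passed in all 14 settings. GRCh38 carries a near-identical copy on the same chromosome (6111131 to 6123778, plus strand), listed in the table only by its Ensembl identifier ENSG00000275993 and named SIK1B in GENCODE 29. Of the 50-base stretches in the longest SIK1B transcript, 94.2% also occur in SIK1 transcripts, so how reads were divided between the rows is uncertain. The copy's row held 175 and 115 reads in vehicle and 827 and 780 in Spautin-1, more than SIK1 itself in every library, and was 5.58-fold higher. Summed, the rows stood at 6.59 and 4.48 CPM in vehicle against 28.0 and 31.4 CPM, a 5.38-fold difference (log2 fold change 2.43 ± 0.19). The 3 fold values lie close together, while the level of SIK1 itself cannot be fixed from its row alone.

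Per length (RPKM, CPM divided by the length of all annotated exons in kilobases), the order in vehicle was CREM at 9.70 ± 1.76, PDE7A at 9.07 ± 0.290, CREB1 at 3.21 ± 0.0983, CRTC2 at 3.03 ± 0.0770, CRTC3 at 2.19 ± 0.0864 and CREB5 at 0.723 ± 0.152 (SD, n = 2). Below these came SIK1 at 0.293 ± 0.00728, PDE4A at 0.137 ± 0.0958, PDE4B at 0.0122 ± 0.000922 and PDE4D at 0.00829 ± 0.00174 RPKM. The ranges of CREM and PDE7A overlapped, so these neighbours have no order in vehicle, and the last neighbours rest on 4 to 6 reads a library. The place of SIK1 holds for its own row alone: with the reads of its copy added it stood at 1.06 ± 0.287 RPKM in vehicle, above CREB5, and at 5.71 ± 0.460 RPKM in Spautin-1. In Spautin-1 PDE7A led at 15.3 ± 0.00834 RPKM, above CREM at 9.61 ± 0.943, and CRTC2 at 5.52 ± 0.387 stood above CREB1 at 4.15 ± 0.00714. SIK1 at 1.43 ± 0.397 stood above CREB5 at 1.03 ± 0.000853, although the SIK1 libraries differed from each other by more than they differed from CREB5 on average. PDE7A thus made up nearly all of the phosphodiesterase message among the 4 enzymes in both groups.

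**Figure D2:**
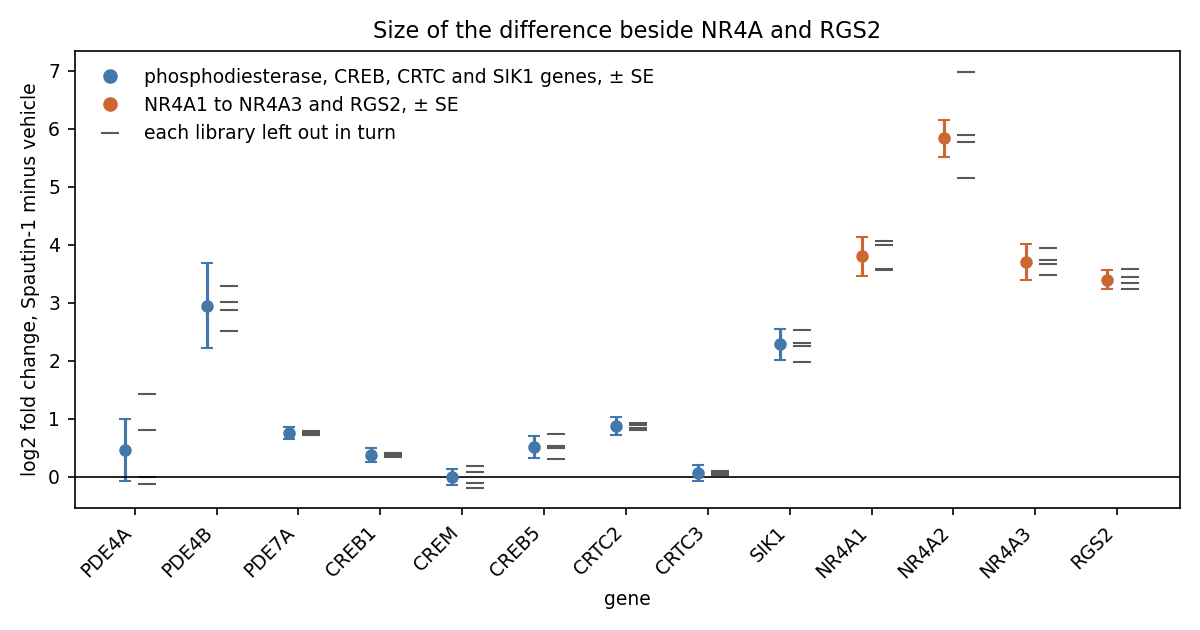
Log2 fold change (Spautin-1 minus vehicle) with its SE for the 9 genes in the fit and, in the other colour, NR4A1, NR4A2, NR4A3 and RGS2; dashes give the value with each of the 4 libraries left out. SIK1 at 2.28 and PDE4B at 2.95 come nearest to RGS2 at 3.40, and the other 7 genes lie below 1.

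The genes the set was compared with showed larger differences. RGS2, which speeds the shut-off of G-protein signals, stood at 3.45 and 4.35 CPM in vehicle against 39.3 and 43.2 CPM, 10.6-fold higher (log2 fold change 3.40 ± 0.17). The orphan nuclear receptors NR4A1 and NR4A3 were at 0.518 and 0.362 CPM and at 0.576 and 0.414 CPM in vehicle. In Spautin-1 NR4A1 reached 5.22 and 7.07 CPM and NR4A3 6.21 and 6.70 CPM, log2 fold changes of 3.80 ± 0.34 and 3.70 ± 0.31. NR4A2 was at 0.749 and 0.207 CPM against 27.7 and 26.0 CPM, a log2 fold change of 5.84 ± 0.32, with 6.99 when vehicle replicate 1 was left out and 5.16 when vehicle replicate 2 was. All these values come from the same 4 libraries as those of the 10 genes, and the differences in size were not tested. Side by side, SIK1 and PDE4B were the only ones of the 9 with at least a 4-fold difference, PDE7A and CRTC2 lay between 1.5-fold and 2-fold, and CREM and CRTC3 lay within 0.1 of 0 on the log2 scale.

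Over the 4 libraries, the protein-coding genes of at least 5 CPM whose log2 CPM, each centred on its own vehicle mean, came nearest to that of SIK1 were DUSP2, a nuclear MAP kinase phosphatase, and SEMA7A, a membrane-anchored semaphorin, with root mean square distances of 0.155 and 0.178 among 8244 genes searched. DUSP2 stood at 2.19 and 2.61 CPM in vehicle against 10.9 and 14.0 CPM. The same genes were nearest to PDE4B, in the other order, with distances of 0.185 for SEMA7A and 0.195 for DUSP2. For CREM the nearest were ZNF746 and CHCHD2 at 0.0264 and 0.0267, both with overlapping groups, although ZNF746, at 8.05 CPM in vehicle, is far from CREM in level. With 2 groups of 2 libraries such likeness of centred profiles reflects little more than a similar fold change in log2 CPM with a prior count of 2. That prior count shrinks the difference of a gene with few reads, such as PDE4B with 4 reads in each vehicle library.

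Promoters were searched for the palindromic CRE, TGACGTCA, and for its core, TGACG, on both strands (CGTCA is the core on the other strand), in the 250 bases before and 50 bases after the RefSeq gene start (GRCh38.p14). Each full CRE holds the core on both strands. The table held 8 of the 10 genes, and PDE7A and CRTC2 were not in it. PDE4A was the 1 gene of the 8 with a full CRE, which 1.98% of all 27305 promoters and 3.23% of the 11169 promoters of genes tested hold. In the PDE4A and PDE4D windows, the bases just after the start matched no GENCODE 29 transcript of the gene. Whether these starts are used in the cells was not measured. PDE4A, SIK1 and CRTC3 held at least 1 core (37.5% of the 8), as do 25.0% of all promoters and 33.9% of those of genes tested. PDE4A held 7 cores and SIK1 3, and 1.47% of all promoters and 2.68% of those of genes tested hold 3 or more. No core was found in these windows for PDE4B, PDE4D, CREM, CREB1 or CREB5, for which other transcript starts were not searched. The stretches below are shown because they hold the cores of PDE4A and SIK1 and, for comparison, the 4 cores of NR4A3, and capitals mark the CRE and core letters (5′ to 3′ on the gene's strand).
PDE4A, chr19:10416680-10416782, plus strand, positions -93 to 10 from the start: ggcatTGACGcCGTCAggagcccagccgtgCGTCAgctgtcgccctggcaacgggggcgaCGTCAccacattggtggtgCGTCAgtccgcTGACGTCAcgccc
SIK1, chr21:43427248-43427353, minus strand, positions -222 to -117: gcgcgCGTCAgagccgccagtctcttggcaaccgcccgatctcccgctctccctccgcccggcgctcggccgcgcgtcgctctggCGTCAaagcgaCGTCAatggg
NR4A3, chr9:99821771-99821869, plus strand, positions -114 to -16: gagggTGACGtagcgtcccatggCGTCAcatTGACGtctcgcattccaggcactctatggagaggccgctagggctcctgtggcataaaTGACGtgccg

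Set beside the differences in level, PDE4A with 7 cores had overlapping groups, SIK1 with 3 cores was 4.87-fold higher, NR4A3 with 4 cores was higher by 3.70 on the log2 scale and RGS2 with 1 core by 3.40. CRTC3 with 1 core lay at 0.06. Of the genes with no core in the window, CREM, CREB1 and CREB5 lay between -0.01 and 0.51, PDE4B at 2.95 and NR4A1 at 3.80. GENCODE 29 gives NR4A1 19 distinct transcript starts. As for the others, only the window at its RefSeq gene start was searched, so a core elsewhere would be missed. Among the 17 CRE-driven genes of the pathway list with a promoter in the table, 14 held a core (82.4%) and 4 a full CRE (23.5%). A match in letters is not a bound site, no binding was measured, and nothing is drawn from these matches about CREB.

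**Figure D3:**
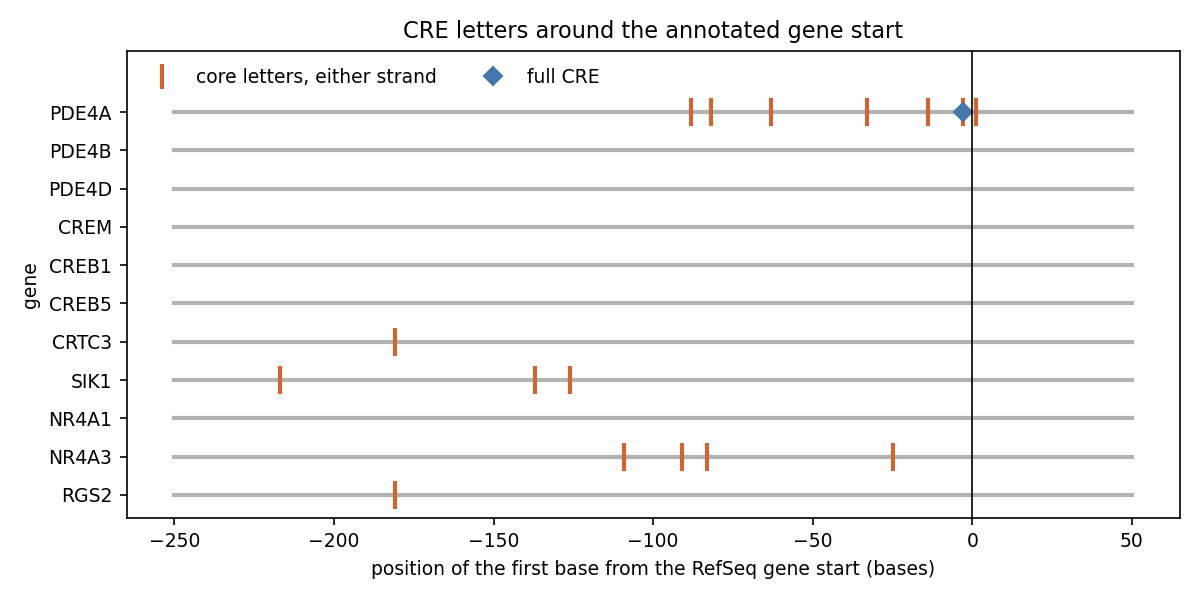
Position of each core (bars) and of the full CRE (diamond) relative to the RefSeq gene start, in bases, for the 8 genes in the promoter table and for NR4A1, NR4A3 and RGS2. PDE4A holds 7 cores between -88 and 1 and a full CRE at -3, SIK1 holds cores at -217, -137 and -126, and 6 of the 11 promoters hold none.

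The rest of the pathway was read from 7 lists of genes tied to cAMP by textbook role or by family, which exclude the 10 genes. Some are relatives outside cAMP signalling, such as PDE9A, specific for cGMP, and CREB3L2, a membrane-bound factor of the secretory pathway. The counts are therefore those of the lists and not of cAMP genes alone. Of 103 genes, 72 were tested; 20 rose and 7 fell (37.5% called, against 22.0% of all genes), with a median log2 fold change of 0.10 against -0.01 for all genes tested. These counts include NR4A1, NR4A2, NR4A3 and RGS2, whose rise was known when the genes were chosen. Without these 4, 16 of 68 rose and 7 fell (33.8% called, median 0.06). The lists as a whole were also drawn up with earlier results of these data known, so all these shares are a description. PDE10A, FOS and NR4A2 entered the fit through the Spautin-1 libraries alone, and with PDE10A and FOS also left out, 14 of 66 rose and 7 fell (31.8% called). Of the 20 that rose, 10 were CRE-driven genes, and the other 10 were spread over the receptors, phosphodiesterases, kinase subunits, anchoring proteins and CREB-family genes. The 20 became 16 to 22 and the 7 became 2 to 11 when a library was left out: without vehicle replicate 1 there were 11 lower, without Spautin-1 replicate 1 there were 4 and without Spautin-1 replicate 2 there were 2.

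Upstream, 1 of 8 tested receptors and G proteins rose (median log2 fold change 0.04). PTGER4, a prostaglandin E2 receptor coupled to the stimulatory G protein, rose 3.44-fold from 6.996 and 9.835 CPM to 26.6 and 31.4 CPM (edgeR adjusted p = 5.56e-05). GNAI2, an inhibitory G protein subunit and the list's most abundant member per length, gave -0.23 ± 0.13 (adjusted p = 0.234 in edgeR), but was called lower without vehicle replicate 1 (-0.37, edgeR adjusted p = 0.00197) and stood at -0.08 without vehicle replicate 2. None of the 4 tested adenylyl cyclases passed in edgeR (median -0.05), with 0 at an unadjusted p under 0.05 and 0 called by DESeq2 or limma-voom. Without vehicle replicate 1, 1 was called higher and 1 lower. Among the cyclases, ADCY3, the most abundant per length, gave 0.06 ± 0.13. Of 7 other phosphodiesterases tested, 2 rose and none fell by edgeR with all 4 libraries (median 0.16), with 0 lower at an unadjusted p under 0.05. DESeq2 and limma-voom each called 1 higher and 0 lower. The absence of a decrease did not hold when vehicle replicate 1 was left out. PDE9A, which is specific for cGMP, rose 1.90-fold from 9.70 and 7.40 CPM to 16.7 and 15.8 CPM (edgeR adjusted p = 0.00348). PDE10A was called at 2.66 ± 0.83 (edgeR adjusted p = 0.0374) on 4 and 2 reads in vehicle and 20 and 19 in Spautin-1. It entered the fit through Spautin-1 alone, and its call was lost by limma-voom (adjusted p = 0.0569) and whichever library was left out (edgeR adjusted p from 0.0890 to 0.233). PDE8A, the most abundant of that list per length, gave 0.16 ± 0.13.

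Among 9 tested protein kinase A genes, 1 rose and 1 fell (median 0.06). PKIG, an inhibitor of the catalytic subunit, rose 2.44-fold from 11.11 and 13.72 CPM to 29.03 and 31.61 CPM (edgeR adjusted p = 0.000173), though it shares exonic bases with ADA on the opposite strand. The regulatory subunit PRKAR1B fell 1.54-fold (edgeR adjusted p = 0.0125), a call lost without Spautin-1 replicate 2 (adjusted p = 0.237), and PRKAR1A, the most abundant kinase subunit, gave 0.13 ± 0.10. Of 14 tested genes of anchoring proteins and EPAC, 3 rose and 2 fell (median 0.12). AKAP5, which scaffolds the kinase with calcineurin, rose 3.17-fold from 4.434 and 3.002 CPM to 12.53 and 10.97 CPM (edgeR adjusted p = 0.000358), AKAP7 rose 2.04-fold and AKAP8L, a nuclear family member, 1.73-fold. AKAP8 fell 1.47-fold and the mitochondrial AKAP1 fell 1.36-fold. Without Spautin-1 replicate 2 neither AKAP8 nor AKAP1 was called, and AKAP7 was not called either, and AKAP1 was also lost without Spautin-1 replicate 1 (edgeR adjusted p = 0.0630).

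Of 17 tested CREB-family factors and CREB regulators, 3 rose and 3 fell (median -0.18). CREBRF, a regulator of CREB3, rose 2.83-fold from 15.5 and 10.9 CPM to 39.0 and 35.6 CPM (edgeR adjusted p = 0.000117). CREB3L2, a membrane-bound factor of the secretory pathway, rose 1.71-fold and PPP3CC, a catalytic subunit of calcineurin, 1.75-fold, the latter not without Spautin-1 replicate 2 (edgeR adjusted p = 0.0550). CREB3L1, related to CREB3L2, fell 1.72-fold from 106 and 128 CPM to 67.9 and 68.5 CPM (edgeR adjusted p = 0.000956). STK11, the LKB1 kinase that activates the salt-inducible kinases, fell 1.56-fold (edgeR adjusted p = 0.00760), and CRTC1 was the remaining decrease.

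Of 13 tested CRE-driven genes, 10 rose and 1 fell (median 1.44). The list holds NR4A1, NR4A2, NR4A3 and RGS2, whose rise was known, and without these 4 it counted 6 of 9 higher and 1 lower (median 1.07). The list itself was drawn up with earlier results of these data known, so the remaining count is a description as well. FOS and NR4A2 entered the fit through the Spautin-1 libraries alone. The 6 were BCL2, FOSB, FOS, PER1, NFIL3 and DUSP1, named after their values were seen, with folds from 1.84 for BCL2, a survival protein, to 5.56 for FOS, an AP-1 subunit. With vehicle replicate 1 or either of the treated libraries left out, 9 of the 13 were higher. The call of DUSP1 was lost without vehicle replicate 1 (log2 fold change 0.67, edgeR adjusted p = 0.113) and with Spautin-1 replicate 2 left out (adjusted p = 0.151). That of NFIL3 was lost without vehicle replicate 2 (1.03, edgeR adjusted p = 0.0603) and with Spautin-1 replicate 1 left out (adjusted p = 0.0985). PER1 kept its call but ran from 0.77 without vehicle replicate 1 to 2.08 without vehicle replicate 2. CCNA2, the S-phase cyclin, fell 1.31-fold (edgeR adjusted p = 0.0258), a call lost without Spautin-1 replicate 1 (adjusted p = 0.225) and without Spautin-1 replicate 2 (0.242). Also picked after the values were seen, EGR1 had 8 and 10 reads in vehicle and 8 and 8 in Spautin-1 and was not tested. The 2 tested genes without a call were JUNB and PCK1. JUNB overlapped between groups at 3.60 and 8.13 CPM against 5.41 and 6.64 CPM, with a call only when vehicle replicate 2 was left out (0.74). PCK1 had 14 and 28 reads in vehicle and 40 and 46 in Spautin-1. Both its Spautin-1 libraries were higher, but its log2 fold change of 1.07 ± 0.51 did not pass (edgeR adjusted p = 0.156).

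**Figure D4:**
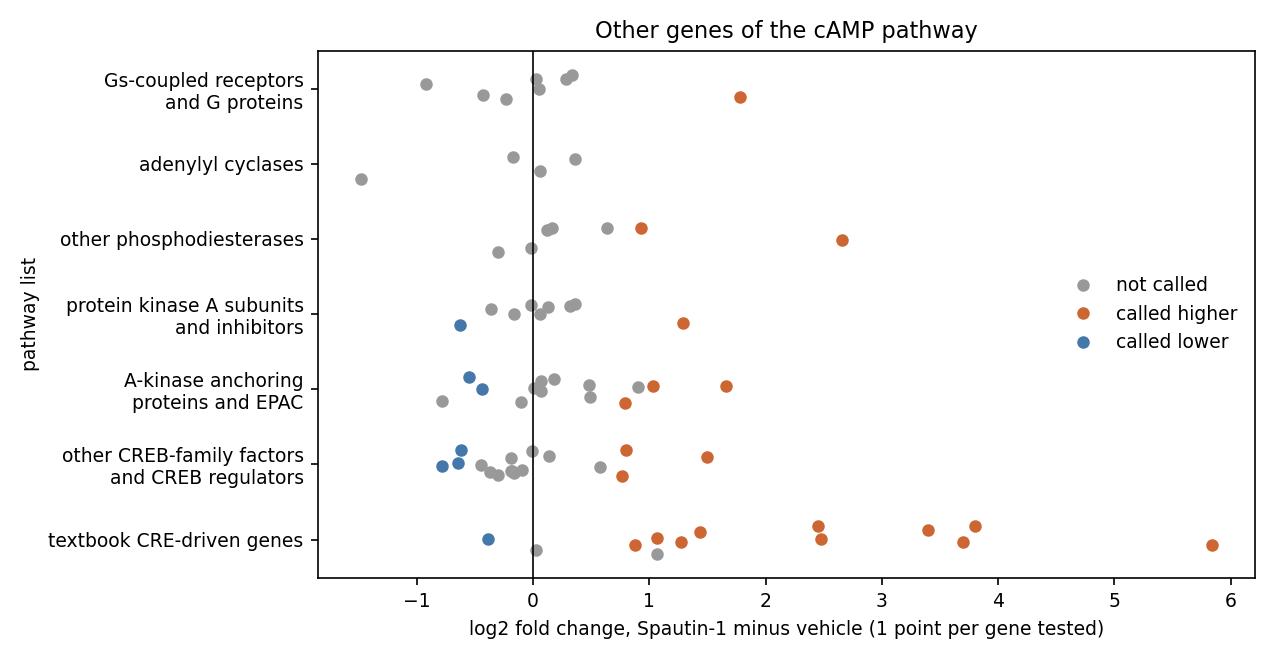
Log2 fold change (Spautin-1 minus vehicle) of each tested gene of the 7 pathway lists, coloured by its call in the edgeR test at an adjusted p under 0.05; vertical scatter within a list is for visibility. Called genes lie on both sides of 0 in the protein kinase A, anchoring protein, CREB-family and CRE-driven lists; of 13 CRE-driven genes 10 are called higher, up to 5.84 for NR4A2, and CCNA2 is called lower at -0.39.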

How the data were processed

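The deposited values are raw counts of reads per gene for 4 libraries, with exon coordinates and exonic length, per the file headers. The submitters' processing notes name Trimmomatic 0.36, featureCounts (Subread 1.5.1), edgeR 3.12.1 and GRCh38. Libraries were stranded, per the labels' protocols. Not given in the sources used here are the aligner, whether counting used strand, and how multi-mapped reads were treated. Among genes with 1 to 20 counts, 74.3% to 76.8% of counts per library were even, so 1 fragment may have given 2 counts, and the counts were also halved as a check.

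The counts went through edgeR 4.0.16 in R 4.3.3: filterByExpr (minimum count 10, total 15), TMM scaling, the quasi-likelihood F test, two-sided, and Benjamini-Hochberg adjustment over 18368 genes, with a threshold of 0.05. CPM and RPKM use TMM-scaled library sizes; likeness used log2 CPM (prior count 2) centred per gene on the vehicle mean. Each SE printed is the absolute log2 fold change divided by the square root of its F value. It therefore draws on the variation of other genes as well as on the gene's own libraries. The procedure was tested on simulated data. With 2 libraries a group, the smallest exact permutation p is 0.333.

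The genes and lists were chosen with earlier results of these data known. Genes named are the 10, NR4A1, NR4A2, NR4A3, RGS2, and per list the 3 called genes with the smallest p in each direction and the most abundant gene per length; exceptions are marked. Alternatives were other scalings and filters, DESeq2 1.42.0, limma-voom (limma 3.58.1), a replicate block and leaving out each library. Halving the counts and summing SIK1 with its copy were chosen after seeing the data. Promoters come from RefSeq (GRCh38.p14), transcript starts from GENCODE 29.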

Additional observations from a re-analysis of the deposited data

How the results depend on the processing

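For the 9 genes in the fit, each alternative with all 4 libraries moved the log2 fold change by less than the spread between replicates. PDE4B had no value under the filter of 1 CPM in 2 libraries. With 2 libraries a group, leaving out a library moves a value by only part of the replicate difference, so that yardstick shows no robustness there. PDE4A went from 0.46 to 1.43 without vehicle replicate 1 and to -0.13 without vehicle replicate 2. CREB5 passed the threshold with the replicate block (0.52) and without vehicle replicate 1 (0.74). CREB1 failed it with upper quartile or library size scaling, without a filter and without either Spautin-1 library, at 0.33 to 0.38. Leaving out a library moved the count of all genes higher from 2112 to between 1067 and 2981, of all genes lower from 1933 to between 780 and 2785, of pathway genes higher from 20 to between 16 and 22, and of pathway genes lower from 7 to between 2 and 11. Where a group was down to 1 library, that library was taken to vary as the other group did. The other settings left 19 or 20 pathway genes higher and 7 to 9 lower. The replicate block gave 2615 genes higher and 2485 lower, and 20 and 9 pathway genes. Its numbers share only a label: the differences between replicates 1 and 2 in the 2 groups correlated at -0.00151 across genes. For the 32 pathway genes named and tested other than PCK1, 20 values lost and 3 gained a call and none changed direction among those called. DESeq2 gave no adjusted p for PDE10A. The full CRE was held by 1 of 8 promoters and the core by 3. Depth limits PDE4B, PDE4D and PDE4A, whose counts were between 4 and 60 reads per library.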
